A study of Mus musculus with 4 samples.

Results

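The transcripts described here encode the ligands and receptors of the 4 classical axon guidance systems: Slits and Robos, netrins with Dcc and Unc5 receptors, semaphorins with plexins and neuropilins, and ephrins with Eph receptors. They were taken from the deposited gene count table by symbol, which gave 71 of its 37411 gene rows: 34 ligand genes, 34 receptor genes and 3 antisense RNAs of the Plxna4 locus, which encode neither. RNA that came down with a kinesin antibody labelled as immunoprecipitating KIF5C was sequenced as 2 libraries (KIF5C libraries), against 2 libraries made with control mouse IgG (IgG libraries). All libraries came from hippocampi of adult mice aged 7 to 9 weeks, with 2 mice per co-immunoprecipitation, and the labels give no strain, genotype or treatment that would set the groups apart. According to the design text, 6 co-immunoprecipitations went into 2 pooled samples, and whether this was per antibody is not stated. Whether replicate libraries rest on different animals is not stated either. The p-values therefore describe library-to-library spread alone, and that spread could be technical.

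Guidance cues steer growing axons by attraction or repulsion: a secreted or membrane-bound ligand binds a receptor on the growth cone, and the receptor changes the local activity of small GTPases and so the actin and microtubule cytoskeleton. Many of these genes stay on in the adult hippocampus, where Eph receptors, semaphorins and their partners are known for roles in dendritic spines and synapses. KIF5C is a neuronal heavy chain of kinesin-1, a motor that moves organelles and RNA-containing particles along microtubules. No library of input RNA was analysed here, so "higher" means a larger share of the reads from the KIF5C precipitate, with the IgG precipitate as the comparison. The precipitates came from hippocampal tissue with many cell types. More cells carrying a transcript, more transcript per cell and more of it recovered with the antibody cannot be told apart here.

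The libraries held 14623843 to 15172432 counts with the KIF5C antibody and 11059266 to 12543510 with IgG. The mitochondrial 16S rRNA mt-Rnr2 took 11.3% and 31.9% of the counts in KIF5C 1 and KIF5C 2, against 7.36% and 32.2% in IgG 1 and IgG 2, so it moved with the replicate number more than with the antibody. Every marker on 11 cell type lists passed the low-count filter, and none was at 0. The summed level of the 6 neuronal markers was 2960 and 2490 CPM (read counts scaled to a common library size) in the KIF5C libraries and 1980 and 2280 in the IgG libraries. Choroid plexus markers summed to 143 and 106 CPM with KIF5C and to 409 and 220 CPM with IgG. Most of this was Ttr alone, at 136 and 99.5 CPM with KIF5C and 400 and 213 CPM with IgG. The other choroid plexus markers, Folr1, Kcnj13 and Clic6, had overlapping groups. Endothelial markers summed to 77.2 and 79.3 against 94 and 90.6 CPM. Excitatory neuron markers summed to 2210 and 2200 CPM with KIF5C against 1880 and 1650 CPM with IgG, astrocyte markers to 2790 and 1900 against 2270 and 1820 CPM, and oligodendrocyte markers to 1660 and 1760 against 1950 and 1920 CPM. With edgeR, none of the 11 marker lists had a member past the threshold in the higher direction. In the lower direction, 2 lists, oligodendrocyte and choroid plexus, had 1 member each past it. DESeq2 also put the neuronal marker Snap25 (0.82, adjusted p = 0.013) and the excitatory neuron marker Wfs1 (0.81, adjusted p = 0.0266) past it, both higher. The part of cell composition in the results below was not tested. The transcript of Kif5c itself measured 782 and 639 CPM in the KIF5C libraries and 565 and 667 CPM in the IgG libraries (log2 fold change 0.21, SE 0.27, adjusted p = 0.702), so the groups overlapped.

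Of the 71 rows, 66 passed the low-count filter, and 2 of those, the receptor gene Robo1 and the ligand gene Slit3, rose in the KIF5C precipitate (edgeR quasi-likelihood test, Benjamini-Hochberg adjusted p under 0.05). That is 3.03% of the tested guidance genes, against 3.33% of all 14357 genes tested, so the number called was no larger than the background. None fell, against 0.745% of all genes. Without adjustment, 16 of the 66 members were higher with p under 0.05, against 1784 of all 14357 genes (12.4%), a larger share. In the other direction 2 of the 66 were lower, against 1301 of all genes (9.06%), a smaller share. DESeq2 put 5 of the 52 members to which it gave an adjusted p past the threshold, all higher, or 9.62%, against 5.84% of all genes, and 0 lower, against 1.4%. These were Robo1, Slit3, Slit1, Unc5a and Nrp2. In the authors' deposited table the same 5 of 55 members with an adjusted p were past 0.05 in the direction of KIF5C and 0 in the other, against 5.82% and 1.08% of all its genes. The number called with edgeR was 0 without KIF5C replicate 1, when 100 of all genes were called higher. It was 9 when IgG replicate 1 was left out (967 of all genes) and 1 when IgG replicate 2 was (223 of all genes).

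The guidance transcripts leaned towards the KIF5C precipitate below the threshold. The median log2 fold change over the 66 was 0.29, against -0.03 over all genes tested, and 44 of 66 (66.7%) were positive, against 47.6% of all genes. In 32 of the 66 (48.5%) both KIF5C libraries lay above both IgG libraries, which 26.3% of all genes did, and in 7 (10.6%) both lay below, which 26.2% of all genes did. The lean was about equal for the 33 tested ligands (median 0.31) and the 33 tested receptors (median 0.28). It differed by family: medians were 0.94 for Slits, 0.72 for netrins, 0.54 for plexins, 0.38 for membrane semaphorins, 0.37 for Dcc with the Unc5 receptors and for the neuropilins, 0.25 for EphB receptors and 0.07 for secreted semaphorins. Ephrin-A genes had a median of -0.32, and the medians of ephrin-B (-0.14), EphA receptors (-0.06) and Robo receptors (-0.01) lay close to 0. Single Robo genes ranged from -0.76 to 1.19. Ephrin-B, EphA and Robo had positive medians when library totals were used without further scaling, at 0.04, 0.09 and 0.11, a scaling that moved the median of all genes by 0.14. These 3 medians and that of the secreted semaphorins also took either sign when single libraries were left out. With trends on transcript GC content and length removed from each library, the EphB median was -0.011. In that fit ephrin-B (-0.31) was level with ephrin-A (-0.35), with Robo at -0.12, EphA at -0.06 and secreted semaphorins at 0.01. Slits were at 0.63, netrins at 0.41, neuropilins at 0.33, plexins at 0.19, membrane semaphorins at 0.17 and Dcc with Unc5 at 0.14. No family median was tested.

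**Figure D1:**
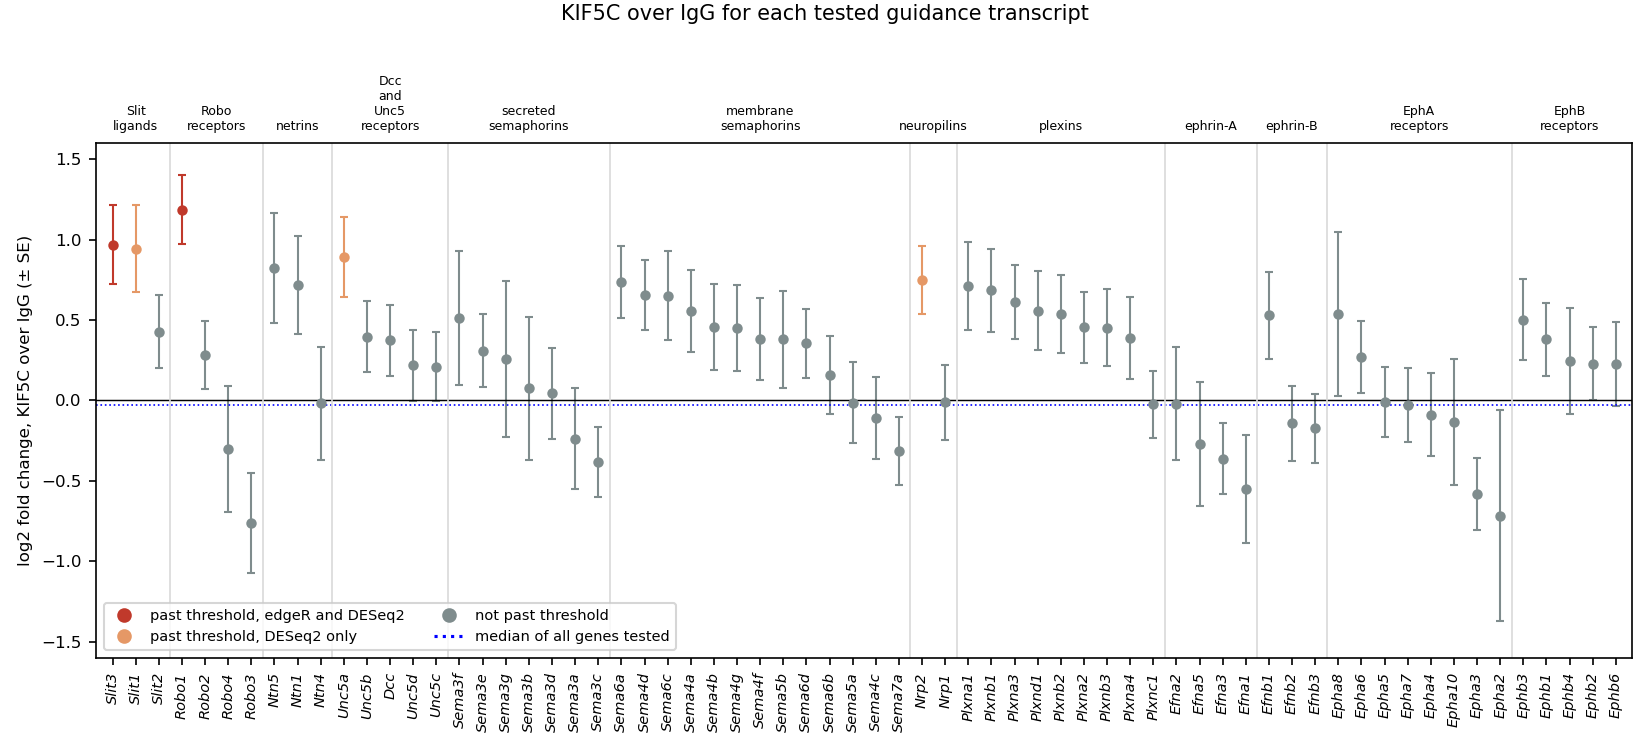
The log2 fold change of KIF5C over IgG (vertical axis) for each of the 66 tested guidance transcripts, grouped by family, with bars for the standard error from the fit on 2 KIF5C and 2 IgG libraries. Robo1 (1.19) and Slit3 (0.97), in red, are past the threshold with edgeR and DESeq2, Slit1, Unc5a and Nrp2, in orange, with DESeq2 alone. Plexins and membrane semaphorins sit mostly above 0, and ephrin-A genes sit at or below 0.

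Transcript composition moved with these values. The guidance transcripts were long and rich in GC, with a median of 5048 nt and 56.0% GC, against 3449 nt and 49.7% for all genes tested. Across all genes the fold change rose with GC content (Spearman correlation 0.328 over 14274 genes, which share the same 4 libraries) and with length (0.204). With genes in 20 bins of GC content, the median log2 fold change was -0.41 in the lowest bin and 0.18 in the highest. Among the 66 guidance transcripts the same descriptions gave 0.338 for GC and 0.226 for length. When trends on GC content and length were taken out of each library, the guidance median was 0.14, against -0.05 over all genes. Of the 2 called members, Robo1 stayed past the threshold (0.97, adjusted p = 0.0133) and Slit3 did not (0.68, adjusted p = 0.0786).

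**Figure D2:**
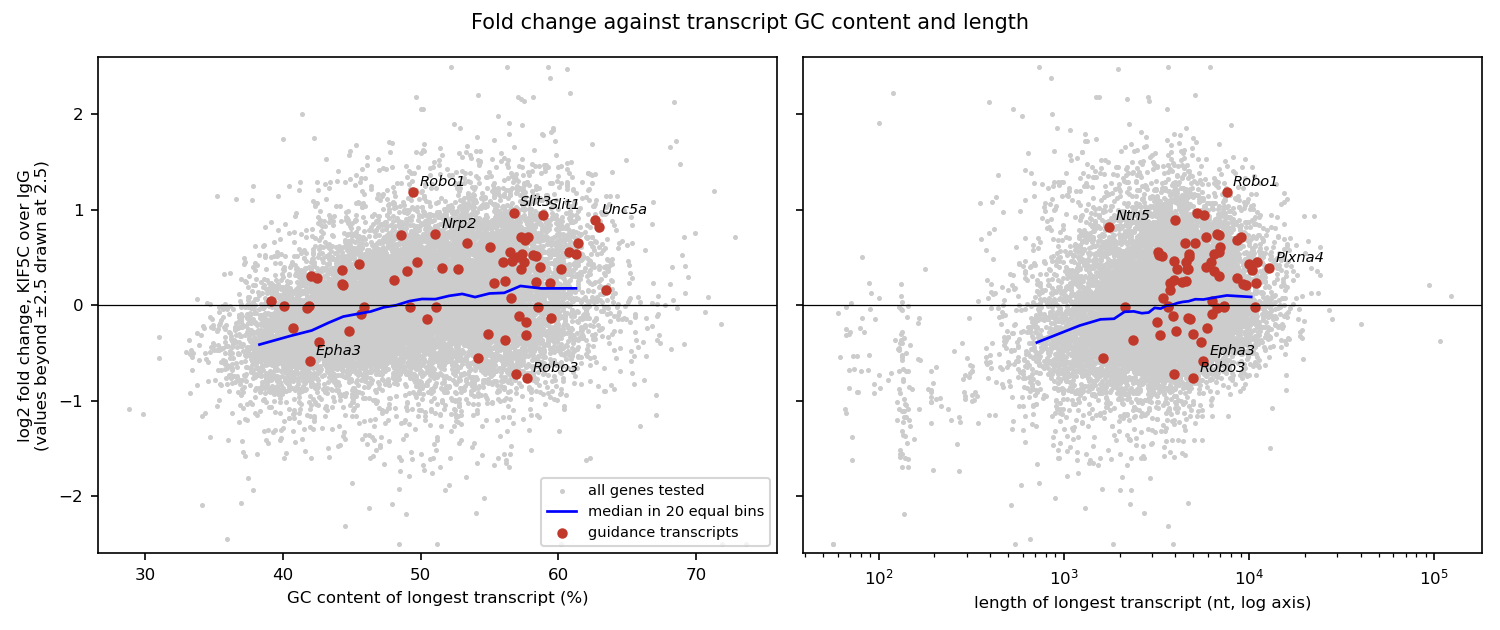
The log2 fold change of KIF5C over IgG (vertical axis) against the GC content in percent (left) and the length in nt on a log axis (right) of each gene's longest annotated transcript, with 66 guidance transcripts in red, all genes tested in grey and the median in 20 equal bins in blue. The blue line climbs from -0.41 to 0.18 with GC content, and Robo1 (1.19) stands above it at both its GC content and its length.

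Slits are large secreted proteins that repel axons through Robo receptors, first known from the midline of the nervous system. Slit1 was the most abundant of them per length. Its level was 255 and 203 CPM in the KIF5C libraries and 151 and 86.4 CPM in the IgG libraries (chromosome 19, 41600257 to 41743665, GRCm38). Both KIF5C libraries lay above both IgG libraries, but the IgG libraries lay far apart from each other. The log2 fold change of 0.94 (SE 0.27) missed the threshold (adjusted p = 0.0572), while DESeq2 passed it (adjusted p = 0.017). In the edgeR fit with the GC and length trends taken out, Slit1 was at 0.63 (adjusted p = 0.106). With edgeR it passed without KIF5C replicate 2 (1.11) or IgG replicate 1 (1.41). Slit3 measured 69.8 and 48.0 CPM with KIF5C against 35.1 and 24.8 CPM with IgG (chromosome 11, 35121224 to 35708507), a rise of 1.96-fold (log2 0.97, SE 0.24, adjusted p = 0.0367). Its groups did not overlap, and the lower KIF5C library was still above the higher IgG library. Slit3 lost its call without KIF5C replicate 1 (0.67, adjusted p = 0.433) or IgG replicate 2 (0.75, adjusted p = 0.157). Slit2 measured 37.0 and 28.1 CPM against 24.4 and 24.0 CPM and did not pass (0.43, SE 0.22, adjusted p = 0.283), also without overlap.

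Robo1, the founding Slit receptor of the family, had the largest log2 fold change and the smallest p of the 66 guidance transcripts in the edgeR fit. The KIF5C libraries held it at 68.0 and 59.5 CPM and the IgG libraries at 26.9 and 29.3 CPM (chromosome 16, 72308306 to 73046095). The libraries of each antibody lay close together and far from those of the other, and the rise was 2.28-fold (log2 1.19, SE 0.21, adjusted p = 0.00859). Its value ranged from 1.09 to 1.29 when 1 library was left out, and it missed the threshold without KIF5C replicate 1 (adjusted p = 0.0796). The authors' deposited table gives Robo1 a fold of 2.10 and Slit3 a fold of 1.79, KIF5C over IgG.

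The other Robo genes did not pass. Robo2, the more abundant of the neuronal pair per length, measured 92.0 and 82.6 CPM with the KIF5C antibody against 72.8 and 70.8 CPM in the IgG libraries (0.28, SE 0.21, adjusted p = 0.466). Robo3, a divergent receptor known for commissural axons of the hindbrain and spinal cord, pointed the other way at 4.59 and 3.34 CPM against 7.81 and 5.60 CPM (-0.76, SE 0.31, adjusted p = 0.163), with both KIF5C libraries below both IgG libraries. Robo4, the endothelial member, was scarce and overlapped, at 1.81 and 2.72 CPM against 2.82 and 2.67 CPM.

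Slit2 and Slit3 also carry a microRNA. In the RefSeq table for GRCm38.p6 the mature miR-218-5p is encoded on the host strand at chr5:48223966-48223986, in an intron of Slit2, and at chr11:35616840-35616860, in an intron of Slit3. The sequence, the same from both loci, is shown because matches to its seed were searched in the guidance transcripts. Its seed, bases 2 to 8, is in capitals.
miR-218-5p: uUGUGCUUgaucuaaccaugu
The letters AAGCACA, which pair with that seed, were searched on the sense strand of the 3′ UTR of each gene's longest coding transcript. They were present in 20 of 68 guidance genes (29.4%; median UTR 1572 nt) and in 2111 of 12987 tested genes with a coding transcript (16.3%; median UTR 1236 nt). The match was not particular to the Robo genes, as Slit2, Epha5, Ephb2, Sema6a, Ntn4 and Plxna4 held 2 each. Robo1 held 1 match, Robo2 held 2, Robo3 held 1 and Robo4 held 0. Those of the Robo genes are shown, in capitals, because these genes are the receptors of the host genes' products.
Robo1, chr16:73045337-73045365, plus strand: tttggttttaaAAGCACAatcactaaact
Robo2, chr16:73895348-73895376, minus strand: tatttggtgatAAGCACAaatctctactc
Robo2, chr16:73893022-73893050, minus strand: acggcagacccAAGCACAgcttctttcag
Robo3, chr9:37416234-37416262, minus strand: gtgactcactgAAGCACActgtctacaac
The match was thus shared by Robo transcripts with positive and negative fold changes. A match is a description of letters, and binding was not measured here.

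Because scaling cancels in a ratio of counts within a library, related genes could be set against each other without it. A trend on GC content or length does not cancel. In the 5 pairs given below the first gene was richer in GC, as with Robo1 (49.5%) over Robo2 (42.4%). With the GC and length trends taken out, the log2 fold changes were 0.97 for Robo1 and 0.30 for Robo2. Those of Unc5a and Unc5c were 0.61 and 0.13. The part of GC content in the ratios was not tested. The pairs were chosen after the values were seen, mostly with the gene of larger fold change first, so separation was in part built in. Of 10 computed, 8 had both KIF5C libraries above both IgG libraries. The 2 that overlapped were Epha3 over Epha4, with a fold of 0.71 between the mean ratios, and Robo1 over Slit1, with 1.08. The same share was not computed for other gene pairs. The Robo1 to Robo2 ratio was 0.739 and 0.721 in the KIF5C libraries and 0.369 and 0.413 in the IgG libraries, so that Robo1 gained on its neighbour 1.87-fold. Nrp2 over Nrp1 gave 0.607 and 0.719 with KIF5C against 0.348 and 0.433 with IgG, and Unc5a over Unc5c gave 1.05 and 1.16 against 0.889 and 0.480. The Slit3 to Slit2 ratio was 1.89 and 1.71 against 1.44 and 1.03, and Slit1 over Slit2 was 6.89 and 7.24 against 6.20 and 3.59. In each of these 5 of the 8 pairs the KIF5C libraries lay above the IgG libraries, with IgG 2 the lowest for the Slit and Unc5 pairs. With 2 libraries against 2, an exact two-sided permutation test cannot go below p = 0.333, so no ratio was tested. A ratio shows unequal change and not which of its genes changed.

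**Figure D3:**
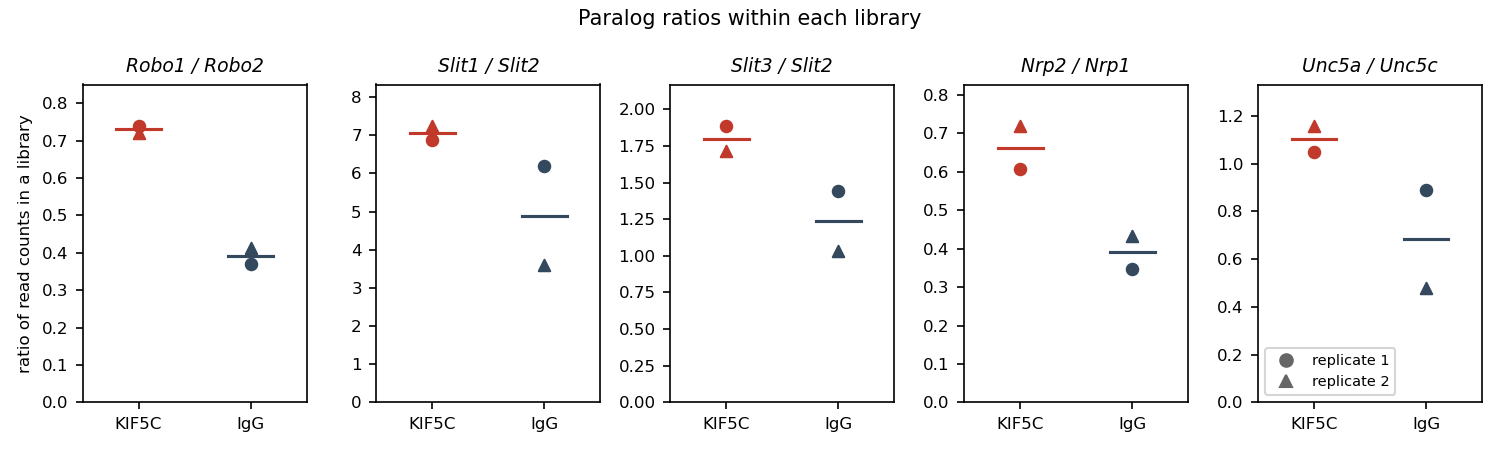
Read counts of 1 guidance gene over those of a relative within the same library (vertical axis, from 0), for 2 KIF5C libraries on the left and 2 IgG libraries on the right of each panel, with bars at the group means. The Robo1 to Robo2 ratio is 0.721 and 0.739 with KIF5C and 0.369 and 0.413 with IgG, and the groups do not overlap in any panel. The pairs were chosen after the values were seen.

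Netrins are laminin-related secreted cues that attract axons through Dcc and repel them through Unc5 receptors. Their transcripts were scarce. Ntn1, encoding netrin-1, measured 6.50 and 7.54 CPM in the KIF5C libraries and 4.99 and 3.31 CPM in the IgG libraries (0.72, SE 0.30, adjusted p = 0.182). Ntn5 measured 4.13 and 4.90 CPM against 2.62 and 2.42 CPM (0.82, SE 0.34, adjusted p = 0.172), and Ntn4 overlapped (-0.02, SE 0.35). Low counts limit what could be detected for all 3.

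The 5 netrin receptor genes all had positive values, against 47.6% of all genes tested. Unc5a, a repulsive receptor of neurons, measured 77.2 and 69.1 CPM in the KIF5C libraries and 49.5 and 28.7 CPM in the IgG libraries (chromosome 13, 54949411 to 55006018; 0.89, SE 0.25). It narrowly missed the threshold (adjusted p = 0.052) and passed it with DESeq2 (adjusted p = 0.0269). IgG 2 was the low library. The value was 0.57 without it and 1.35 without IgG replicate 1, when Unc5a passed (adjusted p = 0.00185). The gene overlaps Hk3 on the opposite strand. Hk3 itself was at 0.826 and 1.01 CPM in the KIF5C libraries and 1.09 and 0.763 CPM in the IgG libraries, whether counting used the strand is not stated, and the part of shared reads in the Unc5a value was not tested. Dcc, the attractive receptor, measured 28.2 and 31.5 CPM with KIF5C against 21.2 and 24.9 CPM with IgG (0.37, SE 0.22, adjusted p = 0.342). Unc5b, Unc5c and Unc5d had values of 0.40, 0.21 and 0.22 with adjusted p-values of 0.313, 0.611 and 0.608. Of these 3 only Unc5c had overlapping groups. Among all genes tested, 26.3% had both KIF5C libraries above both IgG libraries.

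Semaphorins are ligands with a shared sema domain. Class 3 members are secreted and signal through a neuropilin with a plexin, and classes 4 to 7 are held in the membrane and mostly bind plexins directly. None of the 7 secreted members passed. The more abundant ones pointed different ways, Sema3e with overlap and Sema3c without. Sema3e measured 45.4 and 32.9 CPM in the KIF5C libraries and 34.1 and 29.1 CPM in the IgG libraries (0.31, SE 0.23, adjusted p = 0.458), while Sema3c measured 20.5 and 20.2 CPM against 28.2 and 24.8 CPM (-0.38, SE 0.22, adjusted p = 0.323). The other 5 lay at 6.27 CPM or less in every library. Sema3a, the classical collapsing factor, was among them at 4.80 and 3.73 CPM against 4.54 and 5.72 CPM.

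Of the 13 membrane semaphorins, 10 had positive values, against 47.6% of all genes tested, and none passed. Sema6b was negative (-0.12) after the GC and length correction. Sema5a and Sema4c were positive (0.15 and 0.0023) with library totals, a scaling that put the median of all genes at 0.11. Sema6a, a plexin-A ligand, came closest at 24.9 and 21.6 CPM with the KIF5C antibody against 13.7 and 14.4 CPM in the IgG libraries (0.73, SE 0.22, adjusted p = 0.0711). Sema4d, a plexin-B1 ligand, measured 29.6 and 29.8 CPM against 19.7 and 17.9 CPM (0.65, SE 0.22, adjusted p = 0.0968). In both genes the libraries of each antibody lay close together and the groups stood apart. In the edgeR fit with the GC and length trends taken out, Sema6a was at 0.55 (adjusted p = 0.119) and Sema4d at 0.45 (adjusted p = 0.184). Sema7a, the member anchored by a lipid, had the highest level per length in the family and pointed the other way, at 71.0 and 70.5 CPM with KIF5C against 90.8 and 85.2 CPM with IgG (-0.32, SE 0.21, adjusted p = 0.405). The remaining genes included 7 with values from 0.36 to 0.65 (Sema6c, Sema4a, Sema4b, Sema4g, Sema4f, Sema5b and Sema6d), with Sema6b at 0.16 and Sema4c at -0.11. Sema5a, at 120 and 73.8 CPM against 109 and 87.0 CPM, overlapped fully (-0.01, SE 0.25).

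The neuropilins, co-receptors for class 3 semaphorins, differed from each other. Nrp2 measured 66.1 and 56.6 CPM in the KIF5C libraries and 35.7 and 37.5 CPM in the IgG libraries (chromosome 1, 62703285 to 62818695; 0.75, SE 0.21). It missed the threshold (adjusted p = 0.0553) and passed with DESeq2 (adjusted p = 0.0275), and its groups did not overlap. In the edgeR fit with the GC and length trends taken out, Nrp2 was at 0.51 (adjusted p = 0.122). Nrp1 measured 109 and 78.7 CPM against 103 and 86.7 CPM, with the KIF5C libraries on either side of the IgG libraries (-0.01, SE 0.23, adjusted p = 0.983).

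Plexins are the signalling receptors of the semaphorins and carry a GTPase-activating domain inside the cell. Of the 9, 8 had positive values, against 47.6% of all genes tested. In 7 both KIF5C libraries lay above both IgG libraries, against 26.3% of all genes tested. None of the 9 passed. Plxna1 had the highest value, at 177 and 132 CPM in the KIF5C libraries and 122 and 66.5 CPM in the IgG libraries (0.71, SE 0.27, adjusted p = 0.144). Plxnb1, at 78.8 and 53.5 CPM against 50.6 and 31.3 CPM, followed (0.69, SE 0.26, adjusted p = 0.137). The libraries of the same antibody differed widely for both, and both passed without IgG replicate 1 (1.22 for Plxna1 and 1.08 for Plxnb1). Plxna3 was tighter, at 16.2 and 15.2 CPM against 10.7 and 9.79 CPM (0.61, SE 0.23, adjusted p = 0.139). Plxnd1, Plxnb2, Plxna2 and Plxnb3 lay between 0.45 and 0.56 without overlap, at adjusted p-values from 0.201 to 0.293. Plxna4, at 13.7 to 18.5 CPM per kb with KIF5C and 9.91 to 14.7 with IgG, had the highest level per length in the IgG libraries, and Plxna1, at 14.6 to 19.7 and 7.36 to 13.5, was above it in both KIF5C libraries. In CPM, Plxna4 overlapped, at 238 and 177 CPM against 189 and 128 CPM (0.39, SE 0.26, adjusted p = 0.398). Plxnc1, the receptor of Sema7a, was the exception to the lean, at 54.9 and 48.0 CPM against 50.8 and 53.9 CPM (-0.02, SE 0.21). With library totals Plxnc1 was at 0.14, and the median of all genes was 0.11. With the GC and length trends taken out, the plexin median was 0.19. The 3 antisense RNAs of the Plxna4 locus held 0 to 4 counts per library and were not tested.

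Ephrins are membrane ligands that signal in both directions with Eph receptor tyrosine kinases. Ephrin-A proteins are tied to the membrane by a lipid anchor and ephrin-B proteins span it. None of the 4 tested ephrin-A genes had a positive value, against 47.6% of all genes tested. Efna2 (-0.02) was at 0.11 with library totals, as was the median of all genes. Efna3, the most abundant, measured 54.0 and 61.1 CPM in the KIF5C libraries and 83.0 and 64.6 CPM in the IgG libraries (-0.36, SE 0.22, adjusted p = 0.356), with the KIF5C libraries just below the lower IgG library. Efna1 gave -0.55 (SE 0.34, adjusted p = 0.363), Efna5 gave -0.27 (SE 0.39), and Efna4 was too scarce to test, at 0 to 12 counts per library. Of the ephrin-B genes, Efnb3 measured 84.8 and 92.4 CPM against 104 and 95.5 CPM (-0.17, SE 0.21, adjusted p = 0.678), and Efnb1 measured 8.67 and 12.7 CPM against 7.74 and 6.87 CPM (0.53, SE 0.27, adjusted p = 0.269). Efnb2 overlapped at -0.14.

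Among the Eph receptors, Epha4 had the highest level per length of all guidance transcripts. It is a receptor of pyramidal neuron spines that binds both ephrin classes. Its level was 391 and 310 CPM in the KIF5C precipitate and 414 and 331 CPM in the IgG libraries (-0.09, SE 0.26, adjusted p = 0.88), and the difference between libraries of the same antibody was larger than that between antibodies. Epha5 was as even, at 116 and 123 CPM against 116 and 124 CPM (-0.01, SE 0.22, adjusted p = 0.987). Epha3 was lower in the KIF5C libraries without overlap, at 19.2 and 23.5 CPM against 28.9 and 35.1 CPM, but did not pass (-0.58, SE 0.23, adjusted p = 0.146). Without IgG replicate 1, Epha3 passed (-0.72, adjusted p = 0.0465). Epha6 measured 147 and 124 CPM against 121 and 104 CPM (0.27, SE 0.22, adjusted p = 0.515). Epha7 overlapped at -0.03, and the scarce Epha10 lay at -0.13 (SE 0.39). All 5 EphB genes had positive values from 0.23 to 0.50, as 47.6% of all genes tested were positive, and none passed. Ephb2, Ephb4 and Ephb6 were at -0.12, -0.011 and -0.013 with the GC and length trends taken out. Of the 5, Ephb1 and Ephb3 had both KIF5C libraries above both IgG libraries, against 26.3% of all genes tested. Ephb3 had the smallest p of them at 15.3 and 21.4 CPM against 14.7 and 10.8 CPM (0.50, SE 0.25, adjusted p = 0.258). Epha1 had at most 4 counts in a library and was not tested, and Epha2 and Epha8, at 4 to 35 counts, had SEs of 0.65 and 0.51 beside values of -0.72 and 0.54.

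**Figure D4:**
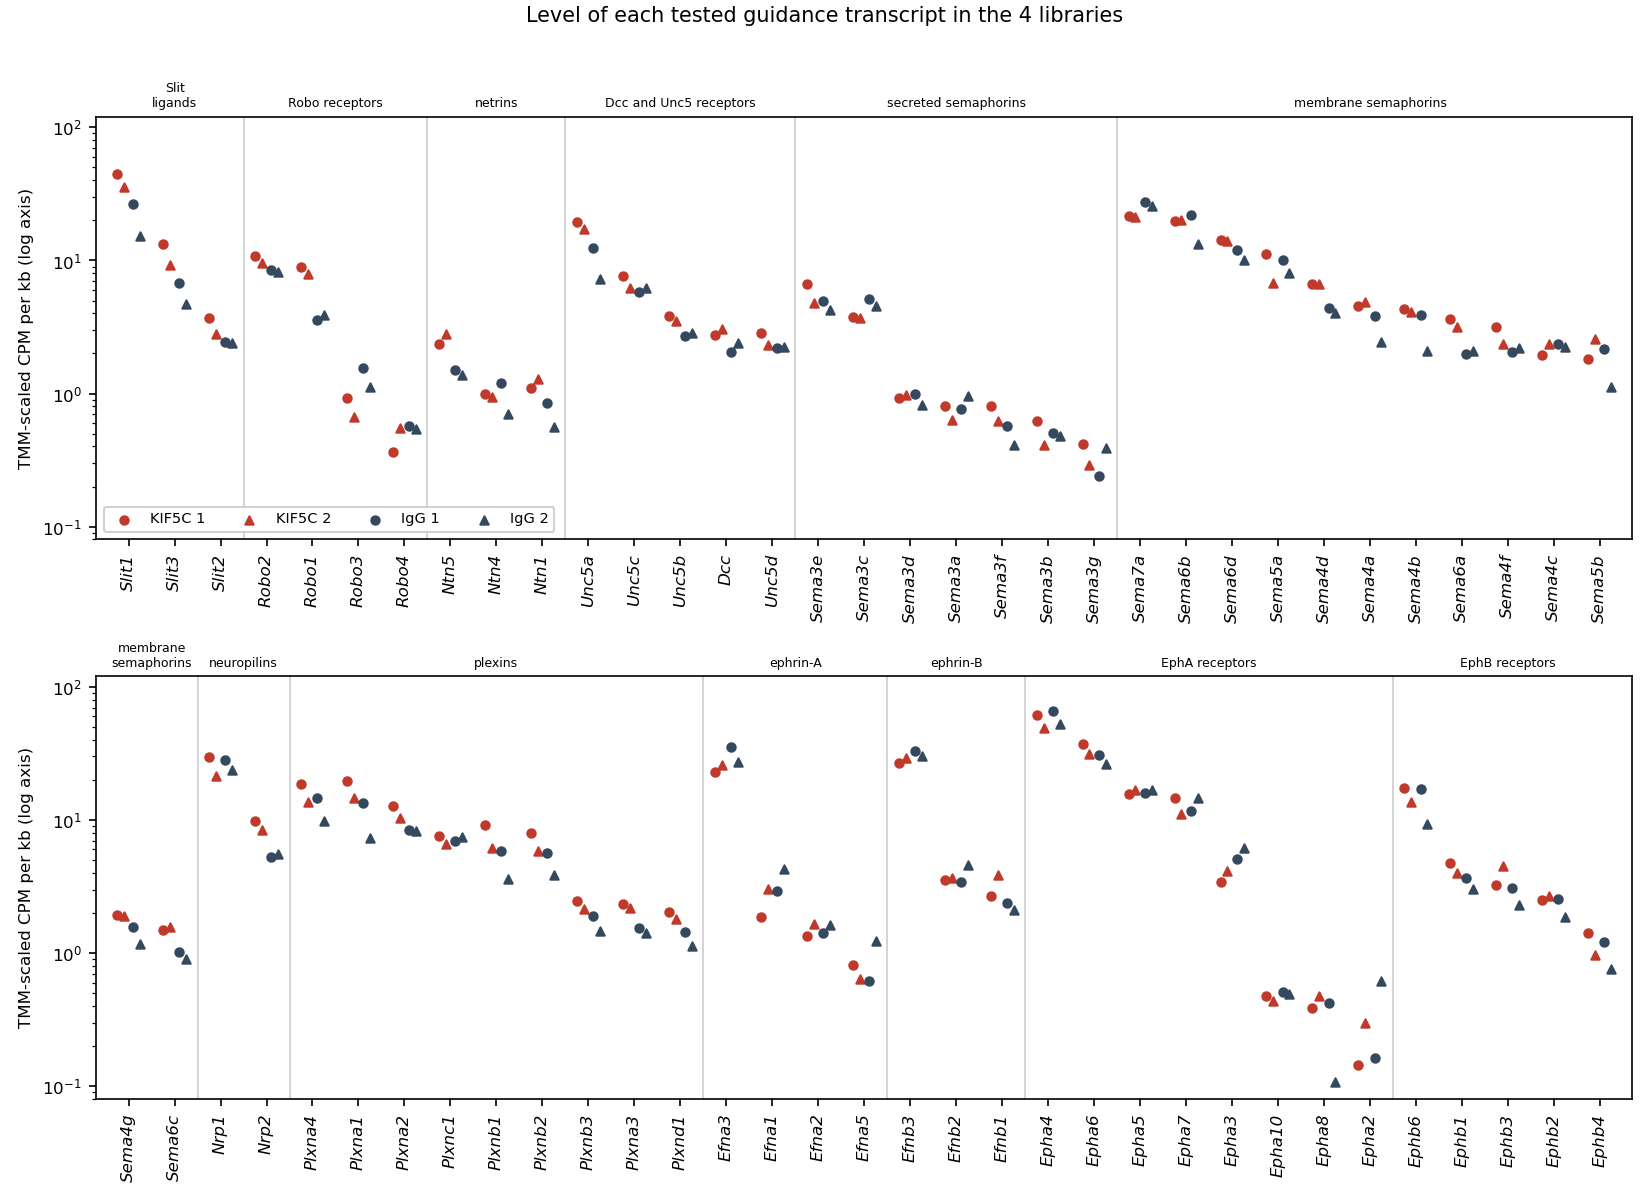
The level of each of the 66 tested guidance transcripts in CPM per kb of the longest annotated transcript (vertical log axis) in the 2 KIF5C libraries (red) and the 2 IgG libraries (dark blue), by family and ordered by mean level. Epha4 (48.9 to 65.4 CPM per kb) stands highest with its groups mixed, while the red points of Robo1, Slit1, Slit3, Unc5a and Nrp2 lie above the blue ones.

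Per length, the 66 levels spanned from about 0.3 CPM per kb for Epha2 to 57.1 CPM per kb for Epha4, averaged over the 4 libraries. After Epha4 came Epha6 (31.6), Slit1 (30.7), Efnb3 (29.6), Efna3 (27.8), Nrp1 (25.8) and Sema7a (24.1). The ranges of Epha6, Efnb3, Efna3, Nrp1 and Sema7a over the 4 libraries overlapped, so their order is not resolved. Slit1 spanned 35.8 to 44.9 CPM per kb in the KIF5C libraries and 15.2 to 26.7 in the IgG libraries, so its place among them depends on the antibody. Robo1 reached 7.87 to 8.99 CPM per kb with KIF5C, close to Robo2 at 9.61 to 10.7, whereas with IgG Robo1 lay at 3.55 to 3.87 and Robo2 at 8.25 to 8.48.

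Genes that act beside or below these receptors were read from a list of 108 co-receptors, cytoplasmic adaptors, GTPase regulators, kinases and actin regulators, all of which passed the low-count filter. Of these, 9 rose (8.33%, against 3.33% of all genes tested), 0 fell (against 0.745%) and 99 did not pass. Because the list was chosen with earlier results of these data known, its shares are a description and not a test. The median log2 fold change over the list was 0.19, against -0.03 over all genes tested. With the GC and length trends taken out it was 0.09, against -0.05 over all genes. Without adjustment 28 of 108 were higher with p under 0.05, against 1784 of all 14357 genes (12.4%). In the other direction 5 of 108 were lower, against 1301 of all genes (9.06%). DESeq2 called 13 of 102 higher (12.7%, against 5.84% of all genes) and 0 lower (against 1.4%). When single libraries were left out, the median of the list ranged from 0.16 to 0.29, and the number called with edgeR also moved in both directions.

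The called genes described here belong to several steps. Mical3, of the flavoenzyme family that oxidises actin downstream of plexins, measured 23.8 and 20.5 CPM in the KIF5C libraries and 6.79 and 9.79 CPM in the IgG libraries (1.45, SE 0.25, adjusted p = 0.00677). Cdk5r2, which encodes the p39 activator of the kinase Cdk5, measured 37.8 and 40.1 CPM against 15.7 and 13.7 CPM (1.40, SE 0.22, adjusted p = 0.006). Both stayed past the threshold in each fit that left out 1 library, and their groups stood far apart. The Cdc42 exchange factor gene Itsn1 (1.27, SE 0.22, adjusted p = 0.00734), the receptor phosphatase gene Ptprf (1.20, SE 0.24) and the Src family kinase gene Fyn (1.10, SE 0.22) also rose. Further genes that rose were Rgma, a neogenin ligand (0.96, SE 0.22), Farp1, a GTPase exchange factor tied to class A plexins (0.94, SE 0.24), and Dpysl5, of the collapsin response mediator family (0.88, SE 0.24). Each of these 6 missed the threshold without KIF5C replicate 1, as did Rgma, Ptprf, Farp1 and Dpysl5 without IgG replicate 2 and Rgma and Dpysl5 without KIF5C replicate 2. Rgma, Farp1 and Dpysl5 missed the threshold after the GC and length correction, at adjusted p-values of 0.0634, 0.0774 and 0.12.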

How the data were processed

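The authors deposited whole-number read counts per gene symbol, not normalized, for 4 libraries, and columns were matched to libraries through the sample descriptions. Salmon, DESeq and the build GRCm38 are named in the submitters' processing notes, without versions. Annotation, strand setting and rounding: not given in the sources used here. A second table holds the authors' comparison: log2 fold changes with standard errors, p-values, a test statistic (a score) and a linear fold, as deposited by the authors. Its log2 values run IgG over KIF5C, opposite in sign to the fits here for 98.3% of genes tested, and its mean normalized signal over the 4 libraries, also deposited by the authors, was not used.

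Groups were compared with edgeR 4.0.16 (R 4.3.3): TMM scaling, filterByExpr (minimum count 10, minimum total 15), quasi-likelihood F test, group as the only term, Benjamini-Hochberg adjustment over 14357 genes, threshold 0.05. SE is the log2 fold change divided by the square root of F, and CPM is TMM-scaled. DESeq2 1.42.0 and limma 3.58.1 (voom) were alternatives. For the GC and length alternative, loess trends (span 0.5) of each library's deviation on GC content and then log length entered as offsets. Fits were checked on simulated counts. Transcript length, GC content and coordinates come from GENCODE M21 (GRCm38), with the longest transcript of a gene. All 71 members matched. In 27 rows the gene name had become a date, and these stayed in the fits unnamed. Members and lists were chosen with earlier results of these data known. Genes named are those past the threshold with either tool, in each family those with the smallest p, the highest level per length and the extreme fold changes, and the called signalling genes, of which 1 is not reported here. Others were added to account for the families. Antisense or overlapping annotated genes touch 44 of the 71 members, whose counts may share reads.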

Additional observations from a re-analysis of the deposited data

How the results depend on the processing

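Robo1 stayed past the threshold in every alternative run except library totals and the fit without KIF5C replicate 1. The scaling with DESeq2 size factors changed no call or direction of the 76 genes refitted (66 guidance genes, Kif5c and 9 signalling genes). With library totals the median of all genes was 0.11. Library totals left 1 gene higher and 4 lower over the whole table, with 0 guidance and 0 signalling genes higher, and gave medians of 0.44 for the guidance genes, 0.53 for Dcc and Unc5, 0.041 for ephrin-B, 0.087 for EphA, 0.11 for Robo and 0.32 for the signalling list, with Efna2 at 0.11, Epha4 at 0.039, Nrp1 at 0.14, Ntn4 at 0.070, Plxnc1 at 0.14, Efnb2 at 0.041, Epha10 at 0.0062, Epha5 at 0.14, Epha7 at 0.19, Sema4c at 0.0023 and Sema5a at 0.15. With GC and length offsets 1 guidance gene was called higher and 1 signalling gene lower, and medians were 0.14 for the guidance genes, 0.14 for Dcc and Unc5, -0.31 for ephrin-B, 0.41 for netrins, 0.19 for plexins, -0.12 for Robo, 0.17 for membrane semaphorins, -0.011 for EphB, 0.0097 for secreted semaphorins, 0.63 for Slits and 0.088 for the signalling list, with Ephb2 at -0.12, Ephb4 at -0.011, Ephb6 at -0.013, Sema3b at -0.11, Sema6b at -0.12, Nrp1 at 0.15, Epha5 at 0.13 and Epha7 at 0.045. No low-count filter gave 902 genes higher and 261 lower, 6 guidance genes higher, Efna2 at 0.010, Nrp1 at 0.019, Ntn4 at 0.011, Plxnc1 at 0.0087, Epha5 at 0.023, Epha7 at 0.0058 and Sema5a at 0.019. DESeq2 called 5 guidance genes, with 627 of all genes higher, and put Ntn4 at 0.0017. With limma-voom 4 were called (533 of all genes higher). A mean count of at least 50 called 5 (557 of all genes higher), with a Robo median of 0.27. The GC and length offsets called 397 of all genes higher and 123 lower. A threshold of 0.1 gave 889 higher and 342 lower genes, 7 guidance genes higher and 1 signalling gene lower. The cause of these changes was not tested.

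The replicate number as a block gave 1162 genes higher and 517 lower, 9 guidance genes higher (Robo1, Slit1, Slit3, Unc5a, Nrp2, Sema6a, Sema4d, Plxna1 and Plxnb1), 22 signalling genes higher and 1 lower, and Ntn4 at 0.020. The labels do not say that same-numbered libraries share a source. Their deviations correlated at 0.142 across genes, a hint from the data only, with 2 pairs.

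Leaving out 1 library at a time gave 100 to 967 genes higher and 24 to 579 lower, 0 to 9 guidance genes higher and 0 to 1 lower, and 2 to 17 signalling genes higher and 0 to 4 lower. Medians ranged from 0.17 to 0.45 for the guidance genes, 0.16 to 0.29 for the signalling list, 0.26 to 0.44 for Dcc and Unc5, -0.45 to -0.11 for ephrin-A, -0.16 to 0.081 for ephrin-B, -0.23 to 0.033 for EphA, 0.032 to 0.66 for EphB, 0.18 to 0.54 for neuropilins, 0.49 to 0.89 for netrins, -0.091 to 0.092 for Robo, -0.060 to 0.33 for secreted semaphorins, 0.24 to 0.70 for membrane semaphorins, 0.61 to 1.25 for Slits and 0.35 to 0.70 for plexins. The 18 guidance genes that took both signs were Efna2 (-0.16 to 0.13), Epha4 (-0.27 to 0.081), Epha2 (-1.53 to 0.38), Ephb6 (-0.12 to 0.73), Nrp1 (-0.27 to 0.21), Ntn4 (-0.30 to 0.47), Plxnc1 (-0.13 to 0.081), Efna5 (-0.74 to 0.25), Efnb2 (-0.35 to 0.081), Epha5 (-0.054 to 0.042), Epha7 (-0.25 to 0.17), Ephb4 (-0.060 to 0.66), Sema3b (-0.28 to 0.33), Sema3d (-0.064 to 0.20), Sema3g (-0.11 to 0.60), Sema4c (-0.24 to 0.031), Sema5a (-0.41 to 0.31) and Sema6b (-0.15 to 0.58). An antibody left with 1 library was assumed to vary like the other. Low counts limit the scarce members, with SEs of up to 0.65.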
